A study of Rattus norvegicus with 4 samples.

Results

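The Cyp4a genes of the rat encode microsomal cytochrome P450 enzymes that hydroxylate fatty acids at the end of the carbon chain. Cyp4a1, Cyp4a2, Cyp4a3, and Cyp4a8 were chosen by symbol, with their measured TPM values known, and are 4 of the 16992 annotated genes in the deposited tables. Levels are given as TPM, StringTie's estimate of transcript abundance relative to the library total and a scale per transcript length on which genes can be compared with each other. RNA came from the livers (left lateral lobe) of 4 male rats of the Wistar strain, bought at 6 weeks of age and with no genetic change given, and each rat is the single library of its condition. A pair of rats inhaled 4.5% sevoflurane or 6% desflurane through a nose cone for 6 h (6 h libraries), and a control for each agent was killed right after it lost consciousness, less than 1 minute into the same agent. Thus, all 4 rats had received an anesthetic agent. Food and water were withheld from all rats from before anesthesia, so that the length of anesthesia and the time without food cannot be told apart. All rats were killed at about the same hour of the afternoon. With 1 library per condition, no difference has a replicate check among these libraries, and no p-values were calculated. Fewer cells of a type cannot be told apart from less RNA per cell.

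In the liver, Cyp4a enzymes start the ω-oxidation of medium- and long-chain fatty acids, receive electrons from the P450 reductase Por, and convert arachidonic acid to 20-HETE, an eicosanoid that acts on vessels. The genes are classical targets of PPARα, the nuclear receptor that binds fatty acids and is active in fasting. Cyp4a1 is the lauric acid hydroxylase that is strongly induced by fibrate drugs in rat liver, Cyp4a2 is expressed at a higher level in the liver of male rats, Cyp4a3 is a close paralog of Cyp4a2, and Cyp4a8 is known mainly from the kidney.

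The promoter windows of the members are shown first because the levels of Cyp4a2 and Cyp4a3, which are close paralogs, moved together. Promoter identity does not measure how reads were assigned between genes, and identity between the transcripts was not measured here. Each window is the 250 bases before the annotated start, read from RefSeq on the GRCr8 build. The windows lie on the minus strand of chromosome 5, at chr5:134170909-134171158 for Cyp4a2, chr5:134352237-134352486 for Cyp4a3, and chr5:133970227-133970476 for Cyp4a8. Capitals mark AGGTCA, the core hexamer of nuclear receptor binding sites.
Cyp4a2: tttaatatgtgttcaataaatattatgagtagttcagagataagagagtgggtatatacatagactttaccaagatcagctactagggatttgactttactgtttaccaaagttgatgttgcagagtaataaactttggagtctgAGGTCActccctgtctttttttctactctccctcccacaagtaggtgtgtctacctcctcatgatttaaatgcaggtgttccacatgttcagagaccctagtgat
Cyp4a3: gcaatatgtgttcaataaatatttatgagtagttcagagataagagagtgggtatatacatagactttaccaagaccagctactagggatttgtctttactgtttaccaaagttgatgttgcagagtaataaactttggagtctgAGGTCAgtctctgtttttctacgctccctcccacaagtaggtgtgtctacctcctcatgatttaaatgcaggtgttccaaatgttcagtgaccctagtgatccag
Cyp4a8: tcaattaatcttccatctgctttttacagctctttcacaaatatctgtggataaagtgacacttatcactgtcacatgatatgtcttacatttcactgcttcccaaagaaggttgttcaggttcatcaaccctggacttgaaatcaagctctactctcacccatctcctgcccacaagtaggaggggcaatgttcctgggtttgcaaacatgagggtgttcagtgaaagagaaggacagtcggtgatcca
Cyp4a1 has no sequence here. The Cyp4a2 and Cyp4a3 windows were identical at 236 of 245 aligned bases (96.3%), whereas the Cyp4a8 window shared 60.8% of 232 aligned bases with Cyp4a2 and 60.6% of 241 with Cyp4a3. AGGTCA was found once in the Cyp4a2 window and once in the Cyp4a3 window, 105 bases before the start in both. It was not found on either strand of the Cyp4a8 window, and 14.1% of the 33469 RefSeq promoter windows of this length hold it on either strand. A direct repeat of AGGTCA with 1 base between the copies, the arrangement bound by PPARα and its partner Rxra, was found in none of these 3 windows on either strand (0.0508% of all windows hold it). TTCNNNGAA, the pattern of the STAT5 site, was found at 1 position in the Cyp4a8 window, 32 bases before the start. Its letters there were TTCAGTGAA, which overlaps itself on the opposite strand, and 7.67% of all windows hold this pattern. TTATGTAA, the D box of clock-controlled genes, was in none of the 3 windows on either strand (0.828% of all windows). These matches describe letters in short windows and not bound sites. Only these letter patterns were searched, so that the lack of a match does not show that a binding site is absent.

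In the annotation of the files (rn6), the members lie on chromosome 5 within 528 kb. Cyp4a8 is at chr5:133978953-134008255, Cyp4a2 is at chr5:134196910-134207863, and Cyp4a3 is at chr5:134196915-134484851, all on the minus strand. Cyp4a1 is on the plus strand at chr5:134492756-134507154, and its start is 7904 bp beyond the end of the Cyp4a3 row. The Cyp4a3 row holds 10949 bases of the Cyp4a2 row, 99.95% of its span, although the span of Cyp4a2 is 3.80% of the span of Cyp4a3. Faah, which breaks down fatty acid amides, and Nsun4, a mitochondrial RNA methyltransferase, also lie inside the Cyp4a3 row. Each of them also has a further row outside it in rn6. In the order of genes of GRCr8, Cyp4a3 is next to Cyp4a1, Cyp4a2 and Cyp4a3 are separated by other genes, and Faah and Nsun4 are outside the cluster. A further paralog, Cyp4a2l1, lies between Cyp4a2 and Cyp4a3 (not analysed here). Its promoter window matched that of Cyp4a2 at 214 of 214 aligned bases. The files give the span of a row and not its exons, so that the values of Cyp4a2 and of the annotated Cyp4a3 row cannot be taken as independent of each other.

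**Figure D1:**
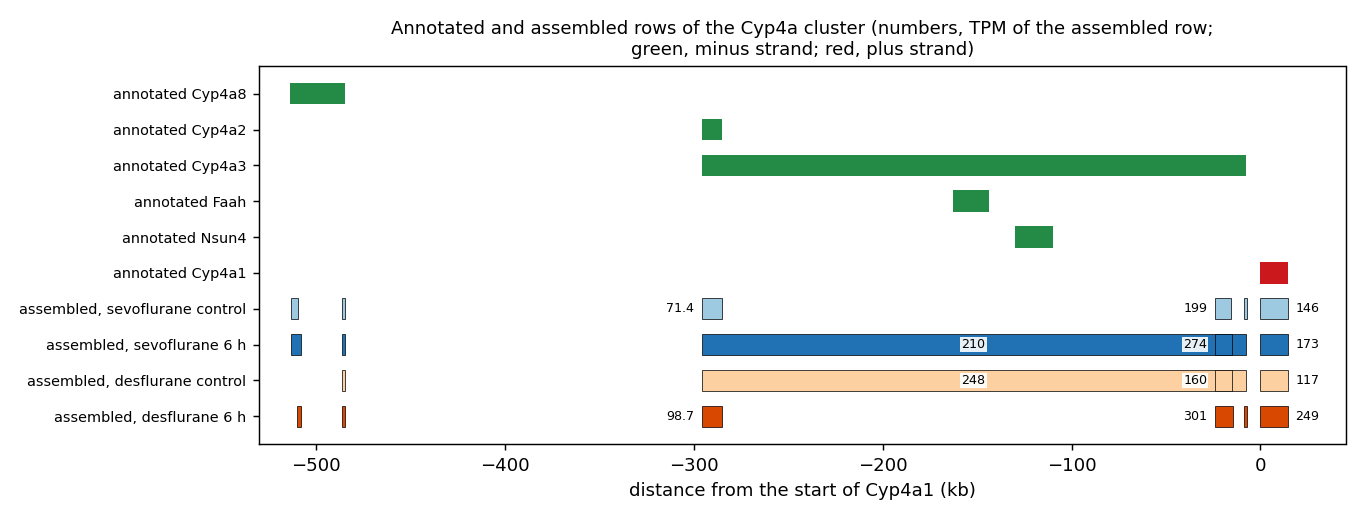
Annotated rows (top, green for the minus strand and red for the plus strand) and rows assembled by StringTie in each of the 4 libraries (below), drawn to scale as distance from the start of Cyp4a1 in kb. Numbers are the TPM of the assembled row. The annotated Cyp4a3 row reaches across the Cyp4a2 locus, and the assembled row next to Cyp4a1 was highest after 6 h of desflurane (301).

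The level of Cyp4a1 was 146 TPM in the sevoflurane control, 173 after 6 h of sevoflurane, 118 in the control of desflurane, and 249 after 6 h of desflurane. Both 6 h libraries were above both controls. The fold against the own control was 1.19 (log2 0.25) with sevoflurane and 2.11 (log2 1.08) with desflurane. Against the control of the other agent, the folds were 1.47 with sevoflurane and 1.71 with desflurane. Cyp4a1 thus had the same direction with either control, whereas its position against a limit of 2-fold with desflurane depended on the control. With median-of-ratios scaling, which equalizes the libraries on the typical gene, the log2 fold with desflurane was 0.95, also below this limit. The controls differed by 1.23-fold, lower in the desflurane control, and desflurane was 1.44-fold higher than sevoflurane at 6 h.

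The level of Cyp4a2 was 71.4 TPM in the sevoflurane control, 181 after 6 h of sevoflurane, 225 in the control of desflurane, and 73.6 after 6 h of desflurane. The high libraries were therefore one 6 h library and one control, and the 6 h libraries did not stand apart from the controls. Against its own control, Cyp4a2 was 2.53-fold higher with sevoflurane and 3.06-fold lower with desflurane. The controls differed by 3.16-fold, more than either of these changes. Against the control of the other agent, the log2 fold was -0.32 with sevoflurane and 0.046 with desflurane, each opposite in sign to the value against the own control. At 6 h, the desflurane library was 2.45-fold lower than the sevoflurane library.

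The annotated Cyp4a3 row was at 80.7 TPM in the sevoflurane control, 187 after 6 h of sevoflurane, 218 in the control of desflurane, and 109 after 6 h of desflurane, with the same high and low libraries as Cyp4a2. Against its own control, it was 2.32-fold higher with sevoflurane and 2.003-fold lower with desflurane, the latter just past a limit of 2-fold (log2 -1.002). Its log2 fold against the control of the other agent was -0.22 with sevoflurane and 0.43 with desflurane. The ratio of Cyp4a2 to Cyp4a3 TPM was 0.884, 0.965, 1.03, and 0.677 in the order of libraries given above, farthest from 1 after 6 h of desflurane.

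Cyp4a8 was listed at 0.934, 0.669, 0.284, and 1.39 TPM in the same order, below 2 TPM in every library. The average coverage of its row was between 0.532 and 2.35 reads per base, compared with 124 to 422 for the other members, and its folds were not read as changes at this depth. The kidney markers were checked because of the known site of Cyp4a8. Of 12 measured, 6 or 7 were listed at 0 in each library, including Umod and Aqp2 in every library, and the organic anion transporter Slc22a8 was the single one above 0.5 TPM.

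**Figure D2:**
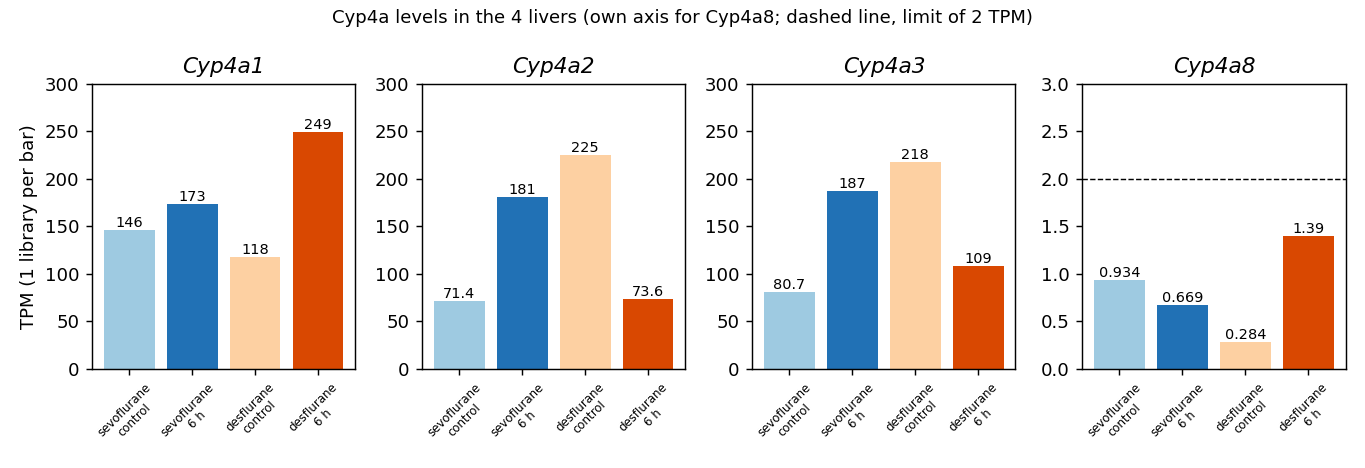
TPM of Cyp4a1, Cyp4a2, Cyp4a3, and Cyp4a8 in each of the 4 libraries (1 bar per library, no error bars because each condition has 1 library), with an axis of its own for Cyp4a8, where the dashed line marks 2 TPM. Cyp4a1 is highest after 6 h of desflurane (249), and Cyp4a2 and Cyp4a3 are highest in the desflurane control (225 and 218).

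The order of the members changed between libraries. Cyp4a1 led in the sevoflurane control and after 6 h of desflurane, followed by Cyp4a3 and Cyp4a2. Cyp4a3 led after 6 h of sevoflurane, narrowly above Cyp4a2 and Cyp4a1, whereas Cyp4a2 led in the desflurane control, narrowly above Cyp4a3. Cyp4a8 was the lowest in all 4 libraries. Without replicates, neighbours in these orders cannot be separated. Among all genes ranked by TPM, Cyp4a1 was between rank 376 and 744, Cyp4a2 between rank 373 and 1255, and Cyp4a3 between rank 383 and 1110. The sum of the 4 members was 299 TPM in the sevoflurane control, 541 after 6 h of sevoflurane, 561 in the control of desflurane, and 433 after 6 h of desflurane. This sum was therefore lowest in the sevoflurane control and highest in the desflurane control, and the 6 h libraries were in between. It includes the annotated Cyp4a3 row, which spans the Cyp4a2 locus, and leaves out the assembled rows described below. It is thus not a measure of the whole family, and a sum with an assembled row, given below, had another order. The sum of the 4 members was 1.81-fold higher with sevoflurane and 1.30-fold lower with desflurane against the own controls. The controls themselves differed by 1.88-fold.

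A gene was called changed by the rule of the study, more than 2-fold and above 2 TPM in the higher library. In every comparison, 3 of the 4 members were above this TPM value. Because the members were chosen with these values known, nothing is read from their counts. With sevoflurane against its own control, 2 members (Cyp4a2, Cyp4a3) were called higher and 0 lower, compared with 2.23% and 3.3% of all genes above the TPM value. With desflurane against its own control, 1 member (Cyp4a1) was called higher and 2 (Cyp4a2, Cyp4a3) lower, compared with 2.79% and 1.48% of all genes. Against the control of the other agent, 0 members were called in either direction with either agent, compared with 2.52% higher and 2.59% lower with sevoflurane and 2.84% higher and 1.58% lower with desflurane. Between the controls, Cyp4a2 and Cyp4a3 were called higher in the desflurane control and 0 members lower, compared with 1.17% of all genes in each direction. At 6 h, Cyp4a2 was called lower with desflurane than with sevoflurane and 0 members higher, compared with 1.17% lower and 2.76% higher among all genes. These comparisons share libraries and are not independent of each other.

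**Figure D3:**
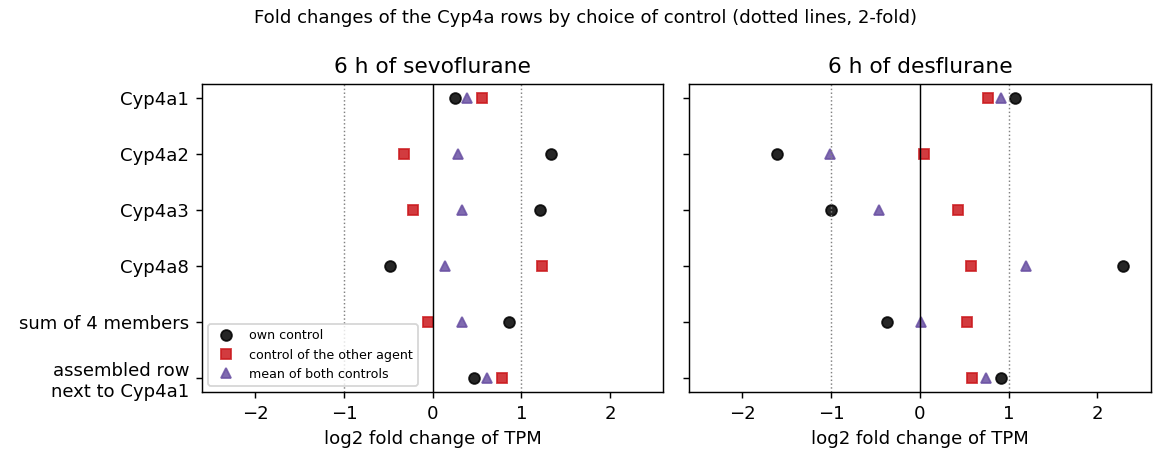
Log2 fold change of TPM (horizontal axis) after 6 h of sevoflurane (left) and desflurane (right) against the own control, the control of the other agent, and the mean of both, for each member, their sum, and the assembled row next to Cyp4a1. Dotted lines mark 2-fold. Cyp4a1 and the assembled row lie to the right of 0 with every control, whereas the symbols of Cyp4a2 and Cyp4a3 lie on both sides of 0 in each panel.

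Rows assembled by StringTie without an annotated symbol were then examined at the cluster, chosen after their values had been seen. In every library, a row on the minus strand began at base 134468636 inside the Cyp4a3 span, on the side next to Cyp4a1, and ended between bases 134477068 and 134477952. Its level was 199 TPM in the sevoflurane control, 274 after 6 h of sevoflurane, 160 in the control of desflurane, and 301 after 6 h of desflurane. Both 6 h libraries were again above both controls, as for Cyp4a1 and unlike the annotated Cyp4a3 row over the same place. Against the own control, this row was 1.38-fold higher with sevoflurane and 1.88-fold higher with desflurane, and against the control of the other agent it was 1.72-fold and 1.51-fold higher. In place of the annotated row, its log2 fold with desflurane was 0.91 and that between the controls was -0.32, opposite in sign to -1.002 and 1.43 of the annotated Cyp4a3 row.

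The assembly of the rest of the Cyp4a3 span differed between libraries. Between the assembled row above and Cyp4a1 lies the upstream end of the Cyp4a3 span. A row that joined the Cyp4a2 locus with this upstream end was present after 6 h of sevoflurane (210 TPM) and in the desflurane control (248 TPM). In the sevoflurane control and after 6 h of desflurane, the Cyp4a2 locus (71.4 and 98.7 TPM) and the upstream end (39.9 and 123 TPM, chr5:134483920-134484860) were separate rows. At Cyp4a1, the assembled rows were at 146, 173, 117, and 249 TPM, close to the annotated values in each library. The sum of Cyp4a1, Cyp4a2, and the assembled row next to Cyp4a1 was 416 TPM in the sevoflurane control, 628 after 6 h of sevoflurane, 503 in the control of desflurane, and 623 after 6 h of desflurane. This sum was highest in both 6 h libraries, but its assembled row was chosen with its values known and was itself above both controls in both. It also leaves out Cyp4a8 and the upstream end of the Cyp4a3 span, so that it is not a count of the family. Which transcript each of these rows stands for could not be settled from spans without exons.

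The genes with profiles most like those of the members were selected over the 4 libraries, among 9136 genes above 2 TPM in each library, by the root mean square difference of centred log2(TPM + 1). Across 4 libraries, such likeness is a description with no test. The genes nearest to Cyp4a1 were Syde2 (0.021), Zrsr1 (0.035), the interleukin-6 receptor Il6r (0.043), Sycp3 (0.053), and the bicarbonate transporter Slc4a4 (0.053), whereas Cyp4a3 was at rank 9008 and Cyp4a2 at rank 9087. The genes nearest to Cyp4a2 were Abo3 (0.121), the ribosomal RNA rows Rn28s (0.139) and Rn45s (0.140), Asrgl1 (0.208), and the acute phase gene Lcn2 (0.226), and Cyp4a3 followed at rank 6 (0.229). The genes nearest to Cyp4a3 were Asrgl1 (0.109), Abo3 (0.137), the stress cytokine Gdf15 (0.147), LOC310926 (0.153), and Ssx2ip (0.194), with Cyp4a2 at rank 9. For the assembled row, the nearest were the glycolytic enzyme Gpi (0.034), the ceramidase Acer2 (0.035), Bet1l (0.042), Pald1 (0.046), and Tmem203 (0.050). Cyp4a1 was at rank 173 of the assembled row, and the annotated Cyp4a3 row at rank 8975.

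The ribosomal RNA rows moved with Cyp4a2 and Cyp4a3. Rn45s, Rn28s, Rn18s, and Rn5-8s together were at 9962 TPM in the sevoflurane control, 23538 after 6 h of sevoflurane, 35023 in the control of desflurane, and 7951 after 6 h of desflurane. These were 1.26%, 2.94%, 4.50%, and 0.979% of the annotated TPM, the same high and low libraries as for Cyp4a2. When the annotated rows were rescaled without these 4 rows, the calls of Cyp4a2 and Cyp4a3 did not change, and the log2 fold of Cyp4a1 with desflurane was 0.97 in place of 1.08. The part of ribosomal RNA left in the libraries in the levels of Cyp4a2 and Cyp4a3 was not tested.

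**Figure D4:**
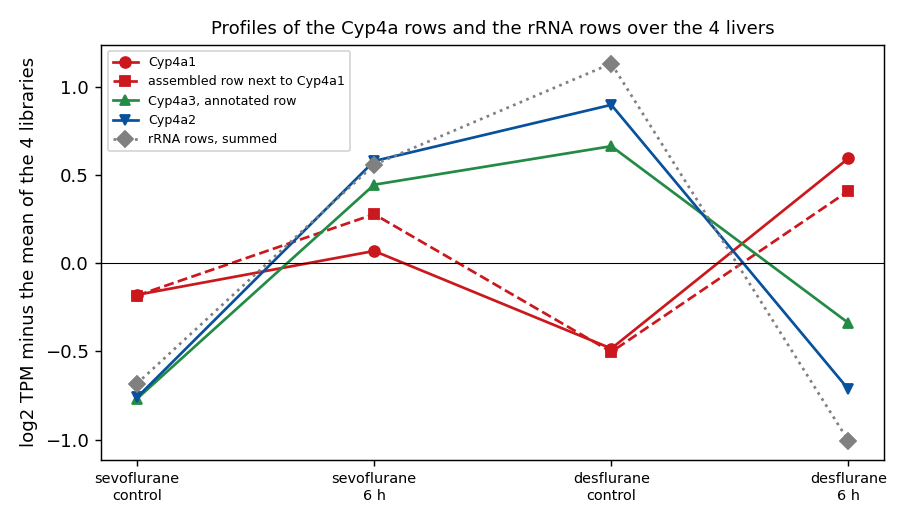
Log2 TPM minus the mean of the 4 libraries (vertical axis) for Cyp4a1, the assembled row next to it, Cyp4a3, Cyp4a2, and the summed ribosomal RNA rows, by library. Lines join the values of 1 row and do not imply an order in time. Cyp4a2, Cyp4a3, and the ribosomal RNA rows peak in the desflurane control, where Cyp4a1 and the assembled row are lowest (118 and 160 TPM).

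The receptor and its partners were examined next. This and the other lists were chosen by symbol, with earlier results of these data known. Their counts and medians beside those of all genes are therefore descriptions and not tests. Ppara was at 70.7 TPM in the sevoflurane control, 70.7 after 6 h of sevoflurane, 53.4 in the control of desflurane, and 92.8 after 6 h of desflurane. Its partner Rxra was at 265, 272, 248, and 349 TPM, and the coactivator Ppargc1a, which is induced in fasting, at 4.23, 5.08, 2.90, and 13.5 TPM. All 3 were highest after 6 h of desflurane, the library in which Cyp4a1 was also highest. Of 16 genes of the receptor and its coregulators, 0 were called higher and 1 lower with sevoflurane, and 3 higher and 1 lower with desflurane, against the own controls. Among all genes, 2.23% were called higher and 3.3% lower with sevoflurane, and 2.79% and 1.48% with desflurane. Those called higher were Ppargc1a (log2 2.21), its relative Ppargc1b (1.12), and Lpin1 (1.52), and the gene called lower with both agents was Pparg (-1.02 with sevoflurane and -1.01 with desflurane). Against the control of the other agent, 1 was called higher and 0 lower with sevoflurane, and 3 higher and 1 lower with desflurane. The shares of all genes were then 2.52% and 2.59% with sevoflurane, and 2.84% and 1.58% with desflurane. The median log2(TPM + 1) difference of these 16 genes was -0.02 with sevoflurane and 0.19 with desflurane, compared with 0.05 and 0.11 over 9595 genes with a mean above 2 TPM.

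Other targets of PPARα gave a wider view of the program to which the members belong. Of 52 genes, 49 had a mean above 2 TPM. With desflurane, 10 were called higher and 0 lower against the own control, with a median log2(TPM + 1) difference of 0.41, and 41 of the 49 genes were above 0. Among all genes, 2.79% were called higher and 1.48% lower. The median over 9595 genes with a mean above 2 TPM was 0.11, and 6399 of them were above 0. With sevoflurane, 2 were called higher and 0 lower, with a median of 0.15, and 35 of the 49 were above 0. Among all genes, 2.23% were called higher and 3.3% lower, the median was 0.05, and 5449 of the 9595 were above 0. Against the control of the other agent, 9 were called higher and 0 lower with desflurane (median 0.40), and 7 higher and 3 lower with sevoflurane (median 0.26). Among all genes, these were 2.84% and 1.58% with desflurane (median 0.09), and 2.52% and 2.59% with sevoflurane (median 0.06). Cpt1a, which admits long-chain fatty acids to mitochondria, was called with both agents (log2 1.40 with sevoflurane and 2.13 with desflurane). The hormone Fgf21 was called with sevoflurane (3.32) and not with desflurane (-0.75). The controls differed by 3.40-fold for Fgf21, and against the control of the other agent it was called higher with desflurane (1.01), opposite in sign to the value against the own control. The others called with desflurane were the β-oxidation enzymes Ech1 (1.65) and Eci1 (1.22), Cpt2 (1.08), the carnitine transporter Slc22a5 (1.97), the lipid droplet coat Plin2 (1.05), the lipase inhibitor Angptl4 (1.42), the peroxisome gene Pex11a (1.15), Acot4 (1.04), and Vnn1 (1.99). The abundant targets Fabp1, a fatty acid carrier, and Acsl1, which activates long-chain fatty acids, were not called with either agent. Against the own controls, Cyp4a1 lay among these genes. Cyp4a2 and the annotated Cyp4a3 row, which cannot be taken as independent of each other, lay below all 49 with desflurane. This depended on the control and, for Cyp4a3, on the row used. Against the control of the other agent, the log2 folds with desflurane, without a pseudocount, were 0.046 for Cyp4a2 and 0.43 for Cyp4a3. The assembled row in the Cyp4a3 span had a log2 fold of 0.91 with desflurane against the own control.

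**Figure D5:**
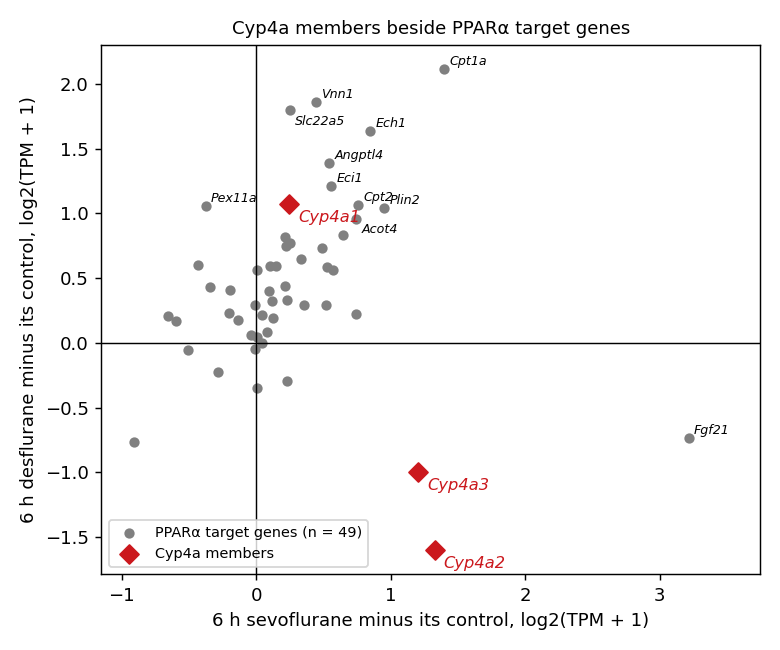
Difference in log2(TPM + 1) against the own control after 6 h of sevoflurane (horizontal axis) and desflurane (vertical axis) for 49 PPARα target genes (grey) and the members above 2 TPM (red). Genes called with either agent are named. Cyp4a1 lies among the targets, whereas Cyp4a2 and the annotated Cyp4a3 row lie at the lower right, higher with sevoflurane and lower with desflurane.

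Among the enzymes that work with Cyp4a in ω-oxidation, Por was at 144 TPM in the sevoflurane control, 642 after 6 h of sevoflurane, 119 in the control of desflurane, and 415 after 6 h of desflurane. Por was thus above both controls with both agents (log2 2.16 and 1.80 against the own controls). The study also measured Por by qPCR in replicate rats of each condition and reported significant activation by both agents. The Cyp4a members were not among the genes measured in that way. Of 19 such genes with a mean above 2 TPM, 2 were called higher and 3 lower with sevoflurane, and 1 higher and 0 lower with desflurane. Among all genes, 2.23% were called higher and 3.3% lower with sevoflurane, and 2.79% and 1.48% with desflurane. The peroxisomal transporter Abcd2 was called higher with sevoflurane (log2 3.47), and the alcohol dehydrogenases Adh1 (-1.08), Adh4 (-2.67), and Adh6 (-7.11) lower. The controls also differed, with Adh6 at 162 TPM and Adh4 at 191 TPM in the sevoflurane control and at 8.36 and 34.1 TPM in the desflurane control. Against the desflurane control, the values with sevoflurane were -0.84 for Adh1, -0.18 for Adh4, and -2.84 for Adh6, of which the last was called. With the controls exchanged between agents, 2 genes of the list were called higher and 1 lower with sevoflurane, and 2 higher and 2 lower with desflurane. The shares of all genes were then 2.52% and 2.59% with sevoflurane, and 2.84% and 1.58% with desflurane. Against the own controls, the median difference was 0.00 with sevoflurane and 0.37 with desflurane, compared with 0.05 and 0.11 over all genes with a mean above 2 TPM.

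Other P450 genes served for comparison. Of 11 measured Cyp4 genes outside the Cyp4a group, 6 had a mean above 2 TPM, and 0 were called with either agent against either control or between the controls. The shares of all genes in these comparisons were between 1.17% and 3.3% in each direction. The most abundant of them, the leukotriene and fatty acid hydroxylase Cyp4f1, was at 591, 445, 517, and 478 TPM in the order of libraries given above. Of 14 genes of eicosanoid synthesis by P450 and hydrolase enzymes, 1 was called lower with sevoflurane (Ptgs1) and 3 higher with desflurane, the arachidonic acid epoxygenase Cyp2c11 (log2 1.08), Cyp2c24 (3.27), and Cyp2j4 (1.02). Among all genes, 3.3% were called lower with sevoflurane and 2.79% higher with desflurane. Cyp2c11 was 2.68-fold lower in the desflurane control than in the sevoflurane control. Against the sevoflurane control, the values with desflurane were -0.35 for Cyp2c11, 2.83 for Cyp2c24, and 0.80 for Cyp2j4, of which that of Cyp2c24 was called. Against the desflurane control, 1 gene of the list was called higher with sevoflurane and 0 lower, compared with 2.52% and 2.59% of all genes. With desflurane against the sevoflurane control, 2.84% of all genes were called higher.

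Genes of the growth hormone axis were included because of the known difference of Cyp4a2 between the sexes. The receptor Ghr was between 219 and 289 TPM, and Stat5b, which carries its signal to the nucleus, between 28.6 and 36.9 TPM. The feedback inhibitor Cish was at 21.9 TPM in the sevoflurane control, 3.63 after 6 h of sevoflurane, 70.0 in the control of desflurane, and 8.40 after 6 h of desflurane, below both controls with both agents. Of 20 such genes, 1 was called higher (Cux2) and 2 lower (Cish, Bcl6) with sevoflurane, and 2 higher (Cyp2c11, Cyp3a18) and 2 lower (Cish, A1bg) with desflurane. Among all genes, 2.23% were called higher and 3.3% lower with sevoflurane, and 2.79% and 1.48% with desflurane. Between the controls, 5 were called higher and 3 lower in the desflurane control, compared with 1.17% of all genes in each direction. With the controls exchanged, 3 were called higher and 4 lower with sevoflurane, and 3 higher and 2 lower with desflurane. The shares of all genes were then 2.52% and 2.59% with sevoflurane, and 2.84% and 1.58% with desflurane. Of 13 clock genes, 1 was called lower with sevoflurane (Npas2) and 2 higher with desflurane (Per1, Per3) against the own controls. With the controls exchanged, 3 were called higher and 3 lower with sevoflurane, and 1 higher and 0 lower with desflurane. For the clock genes, the shares of all genes to compare with are those given for the growth hormone genes.

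Aligned sequence was between 4.47 and 5.40 Gb per library, and the 12 hepatocyte markers were present in all 4 libraries, with a summed level between 151336 and 168489 TPM. The 12 pancreatic acinar markers summed to 65.3 TPM in the sevoflurane control and to between 17.3 and 19.3 in the others. Summed leukocyte markers were at 464 TPM in the sevoflurane control, 282 after 6 h of sevoflurane, 365 in the control of desflurane, and 422 after 6 h of desflurane. Pericentral markers, from the zone of the liver lobule where Cyp4a enzymes are mainly found, summed to 5657, 4349, 3723, and 5525 TPM in the same order, and periportal markers to 3519, 4915, 2495, and 5130 TPM. The pericentral sum was thus low in the libraries in which Cyp4a2 was high. The median of these markers did not follow this pattern, at 17.6, 23.7, 18.2, and 26.3 TPM in the same order. Cholangiocyte markers summed to between 34.0 and 44.8 TPM, endothelial and stellate markers to between 233 and 278, and adipocyte and muscle markers to between 44.1 and 56.8. The part of these cell types in the levels of the members was not tested.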

How the data were processed

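RNA-seq of the liver of 4 rats was used, with 1 library for each condition, as given by the labels. The authors trimmed reads with sickle, mapped them to rn6 with HISAT2, sorted them with SAMtools, and ran StringTie with the refGene annotation of rn6. The deposited TPM values are a signal that StringTie scaled to the library, and the deposited tables also give FPKM and the average coverage per base. Read counts were not used here, so that counting error is unknown. The labels and the methods name different Illumina kits for removal of ribosomal RNA, and whether strand was used in counting is not given in the sources used here.

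Annotated rows of more than 200 bp were kept, and TPM was summed per symbol. The rule for a called gene, more than 2-fold and above 2 TPM in the higher library, was that of the study, without a pseudocount. Medians and profiles used log2(TPM + 1). The members and all lists (other Cyp4 genes, PPARα and coregulators, PPARα targets, ω-oxidation partners, eicosanoid genes, growth hormone axis and male P450 genes, clock genes, and markers of liver zones and cell types) were chosen with earlier results of these data known. Genes named are the members, the 5 nearest profiles of each, genes of a list that were called against the own control or among its 3 most abundant, and Ppara, Rxra, Ppargc1a, Por, Ghr, and Stat5b. Of these, genes were named in the text where a statement turned on them. Symbols were matched to RefSeq (GRCr8) for gene order and promoter windows, found for 3 of the 4 members.

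Alternatives covered the control, scaling, FPKM or coverage in place of TPM, a pseudocount, the TPM and fold limits, the rows used, and the length filter. The assembled row and rescaling without ribosomal RNA rows were added after the data had been seen. Simulated data were used to check the rule. Python 3.11.15, numpy 2.4.6, pandas 2.3.3, and matplotlib 3.10.9 were used.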

Additional observations from a re-analysis of the deposited data

Results flagged for a closer look

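The log2 fold of Cyp4a2 against the own control was 1.34 with sevoflurane and -1.61 with desflurane, opposite in sign, and the difference was -2.95. For the annotated Cyp4a3 row, the folds were 1.21 and -1.002, and the difference was -2.22. For Cyp4a8, below 2 TPM in every library, the folds were -0.48 and 2.29, and the difference was 2.77. These differences were not tested, because each condition has 1 library. The assembled row next to Cyp4a1, which has no annotated symbol, reached 301 TPM after 6 h of desflurane, above 199 and 160 in the controls.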

How the results depend on the processing

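Values are log2 folds against the own control where no other comparison is named. With the control of the other agent, Cyp4a2 reversed to -0.32 with sevoflurane and 0.046 with desflurane, Cyp4a3 to -0.22 and 0.43, the sum of the members was -0.052 and 0.54, Cyp4a1 with desflurane was 0.77, and 0 members were called. With the mean of both controls, Cyp4a2 and Cyp4a3 with sevoflurane were 0.28 and 0.33, Cyp4a1 and Cyp4a3 with desflurane were 0.92 and -0.46, and 0 members were called higher with either agent and 1 lower with desflurane. Cyp4a1 with desflurane was 0.95 with median-of-ratios scaling, 0.93 with coverage over its median, and 0.97 without ribosomal RNA rows, with 0 members called higher in each. With 1 TPM added, Cyp4a3 with desflurane was -0.996, just short of the limit, and 1 member was called lower.

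With the assembled row in place of the annotated Cyp4a3 row, its value reversed to 0.91 with desflurane and to -0.32 between the controls, was 0.46 with sevoflurane, and was 0.13 between the 6 h libraries. The sum was then 0.31 with desflurane and 0.27 between the controls, with 1 member called higher with sevoflurane, 1 higher between the controls, and 1 lower with desflurane. With Cyp4a2 and Cyp4a3 summed, these counts were also 1 each, and the sum of both was -1.01 between the 6 h libraries. At a limit of 1.5-fold, the sum of the members was called with sevoflurane (0.86) and between the controls (0.91), Cyp4a3 between the 6 h libraries (-0.78), and 2 members were lower there. At 3-fold, calls were lost for Cyp4a1 with desflurane (1.08), Cyp4a2 with sevoflurane (1.34) and between the 6 h libraries (-1.29), and Cyp4a3 with sevoflurane (1.21), with desflurane (-1.002), and between the controls (1.43). The counts were then 0 higher with either agent, 1 lower with desflurane, 1 higher between the controls, and 0 lower between the 6 h libraries. Without a TPM limit, Cyp4a8 added calls, giving 2 higher with desflurane, 1 lower between the controls, and 1 higher between the 6 h libraries. No call changed with FPKM or rescaled annotated rows. The highest row per gene could change none, because each member had 1 kept row in each library. A TPM limit of 10 could change none either, because each member was below 2 or above 10 TPM in every library. Without the length filter, the values of the members stayed the same. The causes of these shifts were not tested.

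No paired analysis was possible because each condition has 1 library. Coverage sets the limit for Cyp4a8, and the span of the Cyp4a3 row over Cyp4a2 sets it for both of these members.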
